A study of Rattus norvegicus with 26 samples.

Results

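The transcripts that let a tissue receive, activate, sense and degrade vitamin D were followed in the hippocampus of aging rats fed low, control or high amounts of the vitamin. They comprise 9 genes: the receptor Vdr, the activating and degrading enzymes Cyp27b1, Cyp24a1, Cyp2r1 and Cyp27a1, the carrier and uptake genes Gc, Lrp2 and Cubn, and Pdia3. They were chosen by gene symbol from 14506 genes, and each was measured by 1 probe set (a group of array probes for 1 transcript) annotated to no other gene. Male F344 rats aged 18 months were kept for several months on purified food that held 100 IU of vitamin D3 per kg (low diet), 1000 IU per kg (control diet) or 10000 IU per kg (high diet). There were 8 low-diet, 9 control-diet and 9 high-diet rats, with 1 array per rat on total hippocampal RNA. The rats carried no mutation or transgene in the labels and were housed in pairs. A number in the array descriptions was read here as the cage, which the labels do not state, and by it the 26 rats came from 14 cages. Values are log2 intensities.

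Vitamin D3 travels in blood on the vitamin D binding protein, the product of Gc, and is hydroxylated mainly in liver by Cyp2r1 and Cyp27a1 to calcifediol, the circulating form. Cyp27b1 turns calcifediol into calcitriol, the active hormone, and Cyp24a1 breaks both down. Calcitriol binds Vdr, which pairs with a retinoid X receptor on DNA, and Cyp24a1 is among its most strongly induced targets in kidney and intestine. In kidney the endocytic receptors megalin (Lrp2) and cubilin (Cubn) take up the Gc complex, and Pdia3, a disulfide isomerase of the endoplasmic reticulum, has been proposed as a rapid-acting calcitriol receptor at the membrane.

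Arrays of all diets were close to each other. Array medians lay between 6.92 and 6.965 log2, and every array correlated with the rest at 0.996 or more on average. All 9 marker genes fixed for the hippocampal fields lay above the background limit given next, among them Prox1 of the dentate gyrus (10.67) and Wfs1 of CA1 (12.04). All 3 measured blood markers lay under it. The mean of the 5 measured markers of neighbouring cortex and thalamus was 9.46 ± 0.07 on low (SD, n = 8), 9.525 ± 0.10 on control and 9.63 ± 0.15 on high (SD, n = 9 each), and the part of this in the results was not tested. Precision is limited by how many arrays there were.

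Most of the vitamin D genes gave no signal that stood above background in this tissue. Background was taken from 53 olfactory receptor genes, for which no hippocampal signal was presumed, and the limit was the 95th percentile of their means over all arrays, 6.49 log2. At or under it lay 6 of the 9 genes: Vdr, Cyp27b1, Cyp24a1, Gc, Lrp2 and Cubn, and for each of these 0 of 26 rats passed the limit. Above it lay 3 genes: Pdia3 at 13.13, Cyp2r1 at 7.32 and, only just, Cyp27a1 at 6.58, with 22 of 26 rats over the limit. Of the olfactory receptor genes, 49 had a higher mean than Vdr, 43 a higher mean than Cyp24a1 and 14 a higher mean than Cyp27b1. A limit from 135 vomeronasal receptor genes was 6.51 and gave the same count of 6. The highest of these averaged 8.89, above Cyp2r1, and 2 of the olfactory receptor genes averaged above Cyp27a1. Probe sets differ in base composition, so the limit is approximate, and a value at background does not show that a transcript is absent.

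**Figure D1:**
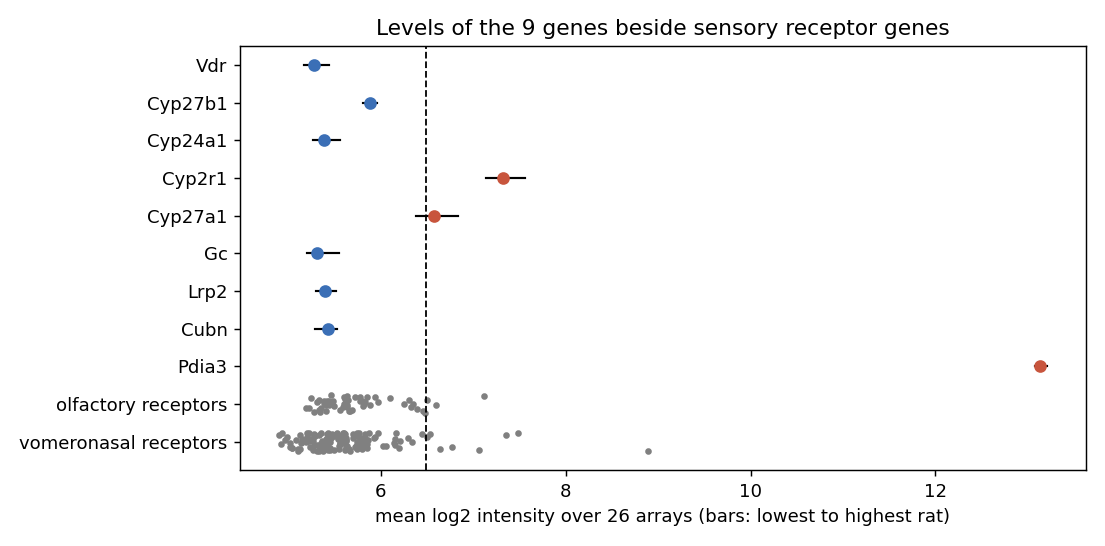
Mean log2 intensity over 26 arrays (horizontal axis) for the 9 genes and, in grey, for 53 olfactory and 135 vomeronasal receptor genes, 1 point per gene with vertical scatter for legibility only. Bars span the lowest to the highest rat, the dashed line is the limit of 6.49 log2, and 6 of the 9 genes (blue) lie left of it while Cyp2r1, Cyp27a1 and Pdia3 (red) lie right of it.

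No difference by diet was detected in the 9 transcripts. In limma's moderated tests over all 14506 genes, with Benjamini-Hochberg adjustment and a threshold of 0.17 (the stricter of the 2 false discovery rates in the series design), 0 of 9 genes were called between high and low, 0 between high and control and 0 between low and control. Of all genes, 0% were called in each of these comparisons and in the F-test over the 3 diets. At an unadjusted p under 0.05 there were likewise 0 of the 9 genes in each comparison, against 5.83% of all genes between high and low (3.33% higher and 2.5% lower on high), 4.47% between high and control (2.51% higher and 1.96% lower on high), 3.12% between low and control (1.77% higher and 1.35% lower on low) and 4.31% in the F-test. The unmoderated test also called 0 of them, with 0 at an unadjusted p under 0.05 in each of the 3 comparisons. The median difference of the 9 genes was +0.0034 log2 between high and low, against +0.0024 over all genes. It was -0.012 against +0.0038 between high and control, and +0.0092 against +0.00076 between low and control. All 27 differences had a 95% interval that contained 0, and in all 27 the values of the compared diets overlapped. The share of all genes with such overlap is not given here, so the overlap is no trait of these 9 in particular.

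**Figure D2:**
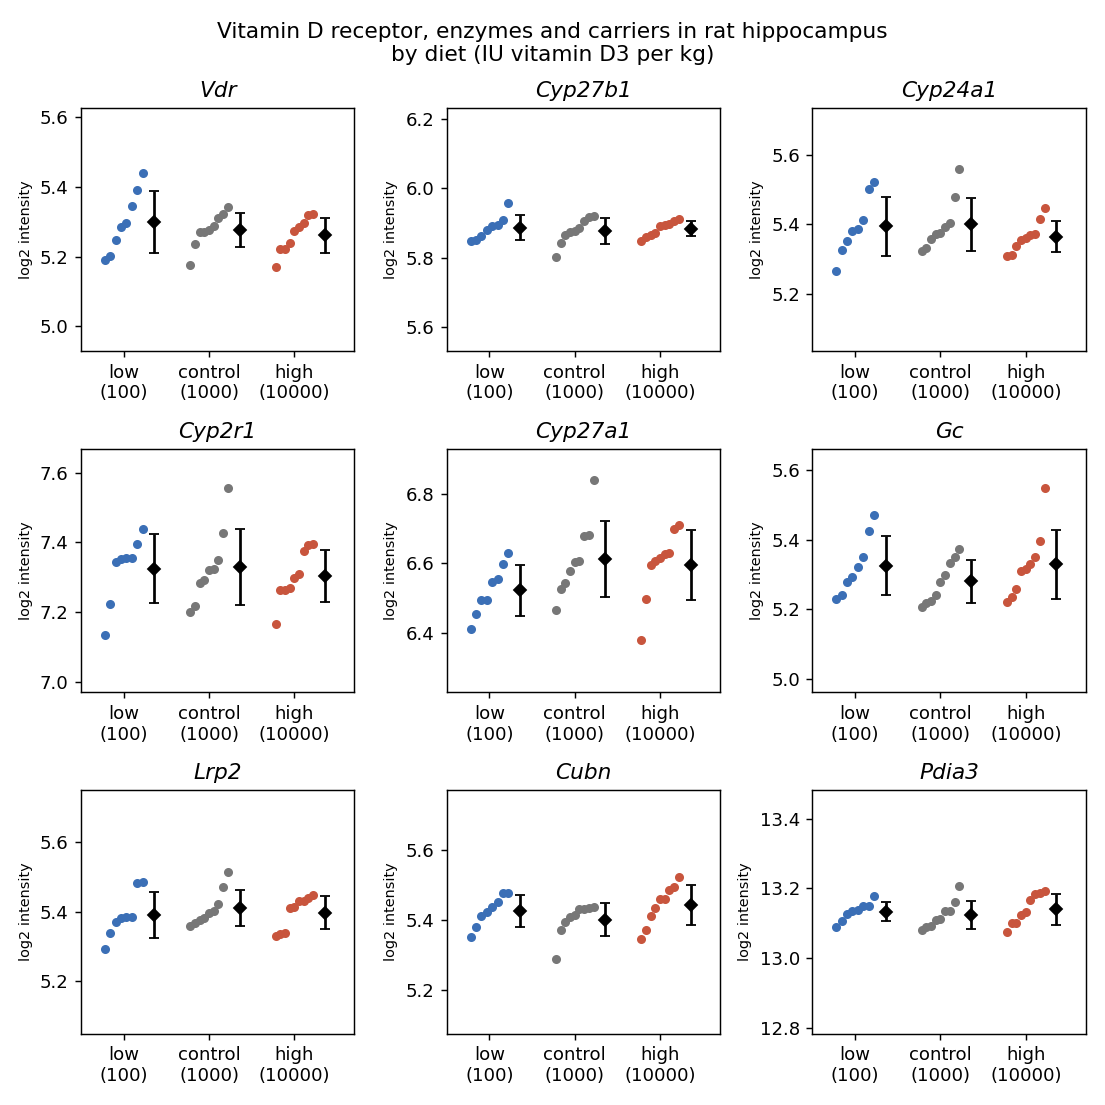
Log2 intensity of each gene (vertical axis, a window of equal height in every panel) by diet in IU of vitamin D3 per kg (horizontal axis), 1 point per rat sorted within its diet. Black diamonds with bars are the mean ± SD of 8 low-diet, 9 control-diet and 9 high-diet rats, and the diets overlap in every panel.

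Vdr, the nuclear receptor of calcitriol, lay between 5.19 and 5.44 (median 5.29) in low-diet rats, between 5.18 and 5.34 (median 5.28) in control rats and between 5.17 and 5.32 (median 5.27) in high-diet rats. The 3 highest values, 5.44, 5.39 and 5.35, came from low-diet rats 2, 8 and 5, and the other values of the 3 diets interleaved. The means were 5.30 ± 0.09 on low (SD, n = 8), 5.28 ± 0.05 on control and 5.26 ± 0.05 on high (SD, n = 9 each, as for all genes below), so the mean was highest on low and lowest on high. Neither step in that order exceeded the spread, with +0.022 between low and control (SE 0.032, limma unadjusted p = 0.4998) and -0.016 between high and control (SE 0.031, limma unadjusted p = 0.609). From one end to the other, high minus low was -0.038, with a 95% interval of -0.104 to +0.028 (limma unadjusted p = 0.246, adjusted p = 0.931). Because Vdr lay at background, no fold is given, and the interval applies to the array signal rather than to receptor transcript.

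Cyp24a1, the enzyme that degrades calcitriol, ranged between 5.27 and 5.52 (median 5.38) on low, between 5.32 and 5.56 (median 5.37) on control and between 5.31 and 5.45 (median 5.36) on high. The high-diet rats had the narrowest range and did not reach the top of the other diets. The means were 5.39 ± 0.09 on low, 5.40 ± 0.08 on control and 5.36 ± 0.05 on high. High minus control was -0.035 (95% interval -0.103 to +0.033, limma unadjusted p = 0.300, adjusted p = 0.998), and high minus low was -0.029 (limma unadjusted p = 0.402). The high diet held 100 times the vitamin of the low diet, and the mean signal was lowest on it, by less than the spread among rats. Because Cyp24a1 lay at background, these values apply to the array signal. They do not show whether the transcript responded to diet.

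Cyp27b1, which makes calcitriol, had a tight spread, between 5.85 and 5.96 on low (median 5.89), between 5.80 and 5.92 on control (median 5.88) and between 5.85 and 5.91 on high (median 5.89). The lowest rat of all was control rat 16 and the highest was low-diet rat 3. The means, 5.89 ± 0.04 on low, 5.88 ± 0.04 on control and 5.88 ± 0.02 on high, were within 0.010 log2 of each other. High minus low was -0.0037 (95% interval -0.047 to +0.040, limma unadjusted p = 0.864, adjusted p = 0.994).

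The promoters of Vdr and Cyp27b1 are shown because calcitriol is known to act on both genes, repressing Cyp27b1 in kidney and regulating its own receptor. Sequences are the 250 bases before the start site from RefSeq on build GRCr8, and 7 of the 9 genes had one, Cyp24a1 and Pdia3 not being matched. Each was searched on both strands for the direct repeat that Vdr binds, 2 elements of 6 bases with 3 bases between them, with each element read as A or G, then G, then G or T, then T, then C or G, then A. Of the 7 genes, 0 held it with at most 1 mismatch, against 4.94% of 33469 promoter windows. With 2 mismatches Vdr, Cyp27b1, Cyp2r1 and Cubn held at least 1 match, but so did 41.6% of all windows. Capitals mark 1 such match with 2 mismatches in each, which for Vdr is 1 of 2 matches. The Vdr window lies at chr7:130916758-130917007 on the minus strand and the Cyp27b1 window at chr7:64756376-64756625 on the plus strand.
Vdr: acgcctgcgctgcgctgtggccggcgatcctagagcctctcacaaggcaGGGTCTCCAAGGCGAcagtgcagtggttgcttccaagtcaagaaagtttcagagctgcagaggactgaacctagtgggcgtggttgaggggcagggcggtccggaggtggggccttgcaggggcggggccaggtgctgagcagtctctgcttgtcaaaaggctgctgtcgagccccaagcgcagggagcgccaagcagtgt
Cyp27b1: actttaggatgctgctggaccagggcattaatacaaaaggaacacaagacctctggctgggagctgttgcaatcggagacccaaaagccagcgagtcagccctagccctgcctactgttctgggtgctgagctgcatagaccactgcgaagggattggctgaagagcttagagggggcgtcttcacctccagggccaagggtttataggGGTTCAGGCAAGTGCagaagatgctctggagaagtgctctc
The marked stretch lies 201 to 187 bases before the start of Vdr and 41 to 27 bases before that of Cyp27b1. A match is a likeness of letters, not a site of binding.

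Among the enzymes that start activation, Cyp2r1 was measured above background and did not pass the test in any comparison. Cyp2r1, the main hydroxylase that makes calcifediol in liver, lay between 7.13 and 7.44 (median 7.35) on low, between 7.20 and 7.56 (median 7.32) on control and between 7.17 and 7.40 (median 7.30) on high. Control rat 16 had the highest value of all and low-diet rat 5 the lowest. The means were 7.32 ± 0.10 on low, 7.33 ± 0.11 on control and 7.30 ± 0.07 on high, with control highest and high lowest. High minus control was -0.027 (SE 0.043, limma unadjusted p = 0.541), a ratio of 0.982 with a 95% interval of 0.924 to 1.04, and low minus control was -0.0049 (SE 0.044, limma unadjusted p = 0.912). Without control rat 16 the difference between high and control was +0.0016.

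Cyp27a1, a mitochondrial sterol hydroxylase of bile acid synthesis that also hydroxylates vitamin D3, came closest to a difference, with a lower mean on the low diet. It lay between 6.41 and 6.63 (median 6.52) on low, between 6.46 and 6.84 (median 6.604) on control and between 6.38 and 6.71 (median 6.61) on high. The low-diet rats did not reach the upper part of the other ranges, yet the lowest rat of all was high-diet rat 21 and the highest was control rat 11. The means were 6.52 ± 0.07 on low, 6.61 ± 0.11 on control and 6.59 ± 0.10 on high, and 7 of 8 low-diet rats lay under the control mean. Low minus control was -0.091 (SE 0.045, limma unadjusted p = 0.0526), a ratio of 0.939 with a 95% interval of 0.881 to 1.00, and its adjusted p was 0.9995. High minus low was +0.073 (SE 0.045, limma unadjusted p = 0.118, adjusted p = 0.907), and high minus control was -0.018 (SE 0.044, limma unadjusted p = 0.676). Leaving out 1 rat in turn gave a low minus control difference between -0.110 and -0.063, with an unadjusted p under 0.05 in 6 of 26 cases and no adjusted p under 0.999. In whole tissue, fewer cells of a type and less RNA per cell cannot be told apart.

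**Figure D3:**
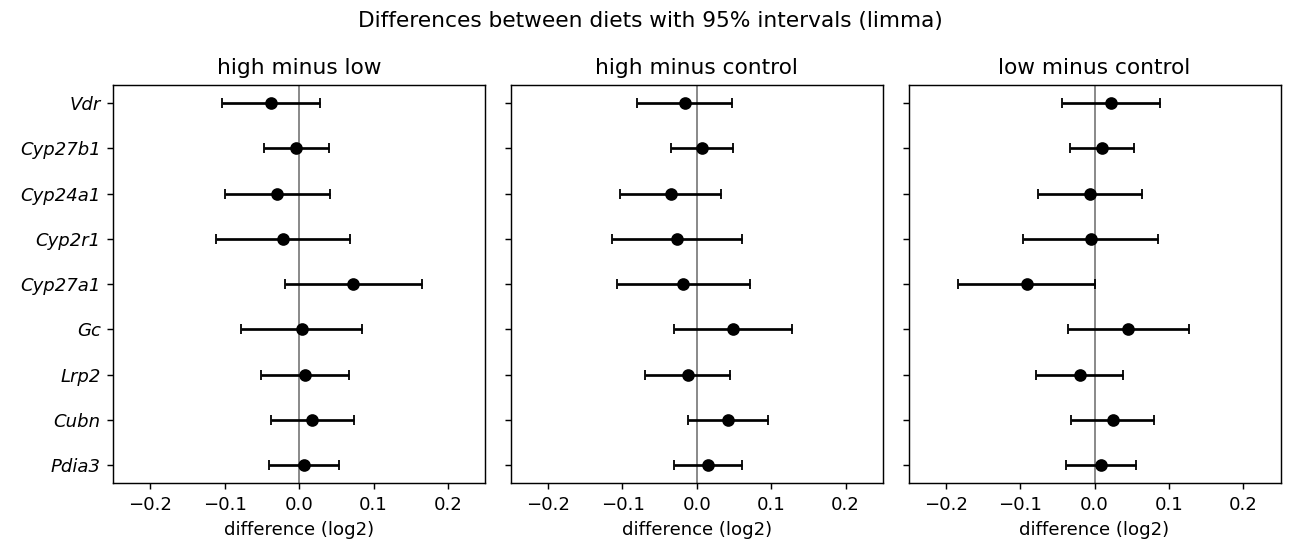
Difference between diets on the log2 scale (horizontal axis) for each gene, with 1 panel per comparison. Points are limma estimates over 26 arrays and bars their 95% intervals, all 27 of which contain 0, with the interval of Cyp27a1 for low minus control ending next to 0.

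The carrier and uptake genes were at background on all 3 diets. Gc, the plasma carrier that liver makes, lay between 5.23 and 5.47 (median 5.31) on low, between 5.21 and 5.37 (median 5.28) on control and between 5.22 and 5.55 (median 5.32) on high. Its highest value came from high-diet rat 21, and the means were 5.33 ± 0.09 on low, 5.28 ± 0.06 on control and 5.33 ± 0.10 on high, closer together than the rats of 1 diet. High minus control was +0.049 (95% interval -0.030 to +0.128, limma unadjusted p = 0.216), and low minus control was +0.045 (limma unadjusted p = 0.264).

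Lrp2, or megalin, ranged between 5.29 and 5.48 (median 5.38) on low, between 5.36 and 5.51 (median 5.40) on control and between 5.33 and 5.45 (median 5.41) on high. Means were 5.39 ± 0.07 on low, 5.41 ± 0.05 on control and 5.40 ± 0.05 on high, and the difference between high and low was +0.0076 (95% interval -0.051 to +0.067, limma unadjusted p = 0.793). Cubn, its endocytic partner, lay between 5.35 and 5.48 (median 5.43) on low, between 5.29 and 5.44 (median 5.41) on control and between 5.34 and 5.52 (median 5.46) on high. The mean of Cubn was 5.43 ± 0.05 on low, 5.40 ± 0.05 on control, where rat 13 stood apart at the bottom, and 5.44 ± 0.06 on high. High minus control was +0.042 (95% interval -0.012 to +0.096, limma unadjusted p = 0.124, adjusted p = 0.998). Amn, which anchors cubilin in the membrane, also lay at background (6.11), as did albumin, Alb (5.77).

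Lrp2 is known from choroid plexus epithelium, and the dissections differed widely in choroid plexus transcripts. The mean of the 17 measured choroid plexus markers per rat lay between 6.09 and 6.50 on low, between 6.07 and 7.56 on control and between 6.10 and 6.69 on high, and 13 of the 17 averaged under the background limit, Kl and Kcnj13 among them. Ttr, the thyroid hormone carrier of the plexus, spanned 6.69 to 12.91 over the rats, with the top value in control rat 16. That rat also had the top values of the channel gene Kcnj13 (9.46), against a median of 5.90 over all rats, and of the ageing suppressor Kl (7.54), against a median of 5.55. Lrp2 in the same rat was 5.42 and Cubn 5.43, against medians of 5.39 and 5.43 over all rats. Not every listed marker varied widely. The range over the rats ran from 0.27 log2 for Col8a1, 0.29 for Steap1 and 0.40 for Aqp1 up to 6.22 for Ttr. It was 0.22 for Lrp2 and 0.24 for Cubn. After removal of diet means, Lrp2 did not follow the choroid plexus score over 26 rats (Pearson r = 0.044, permutation p = 0.835; Spearman rho = 0.069, permutation p = 0.736; r = -0.010 once the 2 rats with the most extreme scores were left out; adjusted p = 0.923 for r and 0.868 for rho).

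**Figure D4:**
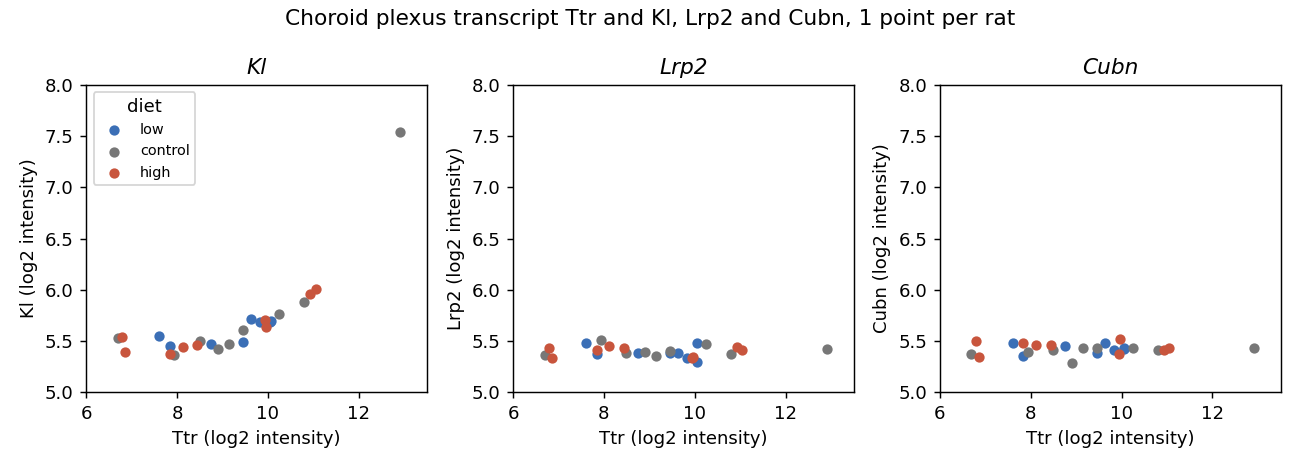
Kl, Lrp2 and Cubn (vertical axes) against the choroid plexus transcript Ttr (horizontal axes), all in log2 intensity with 1 point per rat coloured by diet. Kl is raised in the rats of highest Ttr, up to 7.54 in control rat 16, while Lrp2 stays between 5.29 and 5.51 and Cubn between 5.29 and 5.52.

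Such relations were computed for the 9 genes with the choroid plexus, meningeal fibroblast and vessel scores, 27 in all, and none had an adjusted p under 0.05. The strongest was between Cyp27b1 and the vessel score (Pearson r = -0.544, permutation p = 0.00414, adjusted p = 0.112; Spearman rho = -0.582, permutation p = 0.00231, adjusted p = 0.0624; r = -0.432 once the 2 rats with the most extreme scores were left out). Rats of 1 cage entered these permutations separately, and r over 14 cage means was -0.351. At an unadjusted p under 0.05 for r there were 5 of the 27, and the share of all genes with such a relation is not given here. Lrp2, Cubn and Cyp24a1 also had a negative r with the vessel score, none past the correction (r = -0.437, -0.426 and -0.406, permutation p = 0.0253, 0.0286 and 0.0396, adjusted p = 0.193, 0.193 and 0.214; rho = -0.394, -0.422 and -0.319, permutation p = 0.0468, 0.0317 and 0.112, adjusted p = 0.382, 0.382 and 0.504). Once the 2 rats with the most extreme scores were left out, r was -0.383, -0.360 and -0.379, and over cage means it was +0.104, -0.380 and +0.138. Cyp27b1, Lrp2, Cubn and Cyp24a1 all lay at background, so these relations are of array signal. Whether other genes at background follow the vessel score in the same way was not tested. The vessel score itself averaged 7.84 ± 0.04 on low, 7.87 ± 0.04 on control and 7.79 ± 0.03 on high. Pdia3 and the choroid plexus score gave r = 0.428 (permutation p = 0.0253, adjusted p = 0.193; rho = 0.231, permutation p = 0.256, adjusted p = 0.768), and r was 0.255 once the 2 most extreme rats were left out. Control rat 16, the rat of highest choroid plexus score, had the highest Pdia3 and Cyp2r1 and the lowest Cyp27b1 of all rats, and the part of choroid plexus in these values was not tested further.

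Pdia3, which folds glycoproteins in the endoplasmic reticulum, was the only one of the 9 genes with a strong signal, and it varied little. It lay between 13.09 and 13.18 (median 13.14) on low, between 13.08 and 13.21 (median 13.11) on control and between 13.07 and 13.19 (median 13.13) on high. The ranges nearly coincided, and the mean was 13.13 ± 0.03 on low, 13.12 ± 0.04 on control and 13.14 ± 0.04 on high. High minus low was +0.0063 (SE 0.023, limma unadjusted p = 0.787), a ratio of 1.00 with a 95% interval of 0.972 to 1.04. High minus control was +0.016 (SE 0.022, limma unadjusted p = 0.492), a ratio of 1.01 with an interval of 0.979 to 1.04.

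Over a 10-fold step in dose, fitted as a line over log10 dose, 0 of the 9 genes and 0% of all genes were called, and at an unadjusted p under 0.05 there were 0 of the 9, against 5.96% of all genes. The steepest slopes among the 9 were those of Cyp27a1, +0.035 log2 per 10-fold dose (SE 0.023, limma unadjusted p = 0.135), and Vdr, -0.019 (SE 0.016, limma unadjusted p = 0.238). For the 3 genes above background, the intervals of the 9 differences reached at most 1.14-fold in either direction, so larger differences in signal lay outside the 95% intervals. For the 6 genes at background the 18 intervals lay between -0.104 and +0.128 log2. Their SD within diets was 0.032 to 0.084, against a median of 0.096 for the olfactory receptor genes, so their spread was no wider than that of genes presumed silent.

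Rats of a cage were identified by a tail mark, and the mark was tested in a model that also held diet. Of the 9 genes 0 were called, as were 0% of all genes. Unadjusted p values were under 0.05 for 2 of the 9, against 4.69% of all genes. Marked minus unmarked rats differed by -0.066 log2 in Gc (limma unadjusted p = 0.0384) and by +0.072 in Cyp27a1 (limma unadjusted p = 0.0460), both with an adjusted p of 0.982.

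Further genes of vitamin D action were not called either, as 70 measured genes in 5 lists of partners, carriers and targets gave 0 calls in either direction in any comparison. At an unadjusted p under 0.05, 1 of the 70 was higher and 1 lower on high than on low, 0 were higher and 1 lower on high than on control, and 2 were higher and 1 lower on low than on control. These are 2.86%, 1.43% and 4.29% of the 70, against 5.83%, 4.47% and 3.12% of all genes. The retinoid X receptors that pair with Vdr were measured above background. Rxrg, at 6.78, lay nearest to the limit of 6.49 and under the median of all probe sets, 6.94. Rxra averaged 8.45 ± 0.12 on low, 8.43 ± 0.13 on control and 8.498 ± 0.08 on high, and high minus control was +0.072 (limma unadjusted p = 0.150). Rxrb differed by -0.016 and Rxrg by +0.18 between high and low (limma unadjusted p = 0.656 and 0.135). Of the 14 measured partners and cofactors of Vdr, 6 had a higher and 8 a lower mean on high than on low, and their median difference was -0.0016 log2, against +0.0024 over all genes. Between high and control 8 were higher and 6 lower on high (median +0.0023), and between low and control 9 were higher and 5 lower on low (median +0.0033). Of all genes, 52.56% had a higher mean on high than on low, 54.15% on high than on control and 50.85% on low than on control, and the splits of the lists below are descriptions beside these shares.

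Of the 10 measured redox partners and further hydroxylases, 3 had a higher mean on high than on low and 7 a lower one (median -0.030). Against control, 6 were higher and 4 lower on high (median +0.0076), and 7 were higher and 3 lower on low (median +0.0086). Dhcr7, which turns the skin's vitamin D3 precursor into cholesterol, averaged 8.47 ± 0.17 on low, 8.59 ± 0.08 on control and 8.63 ± 0.11 on high. High minus low was +0.16 (limma unadjusted p = 0.00895, adjusted p = 0.852) and low minus control -0.12 (limma unadjusted p = 0.0469). Cyp2c11, a hydroxylase of male rat liver, lay at background and differed by +0.098 between low and control (limma unadjusted p = 0.0318). The redox partners Por (9.18) and Fdx1 (7.42), which pass electrons to these enzymes, were above background.

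Among the 9 measured carriers, adaptors and chaperones, 2 had a higher and 7 a lower mean on high than on low (median -0.010). Against control, 1 was higher and 8 lower on high (median -0.015), and 5 were higher and 4 lower on low (median +0.0018). Dab2, an adaptor that binds the tail of megalin, averaged 9.36 ± 0.08 on high and 9.45 ± 0.14 on control, a difference of -0.092 (SE 0.045, limma unadjusted p = 0.0489, adjusted p = 0.998). Vessel markers had a lower mean as well, 7.75 to 7.83 per rat on high and 7.80 to 7.91 on control, and their part in the Dab2 value was not tested. Lrpap1, the chaperone of megalin, was well above background (10.44).

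Of 26 measured target genes of vitamin D, 6 had a higher and 20 a lower mean on high than on low (median -0.013). Against control, 15 were higher and 11 lower on high (median +0.0097), and 19 were higher and 7 lower on low (median +0.017). At background lay 14 of the 26, including the classical targets of intestine and kidney S100g (5.32), Trpv5 (5.25) and Trpv6 (5.67). Pth, the parathyroid hormone gene that calcitriol represses in the parathyroid, was at background too and differed by -0.085 between high and low (limma unadjusted p = 0.00613, adjusted p = 0.852). The neuronal calcium buffer Calb1 was measured at 10.25. All 11 partners of Pdia3 in protein folding and signalling lay above background, with 5 higher and 6 lower on high than on low (median -0.0066). The split was again 5 and 6 between high and control (median -0.0066), and 8 were higher and 3 lower on low than on control (median +0.0054).

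For the 3 genes above the background limit, the genes most like them in values over the 26 rats are given, with diet means removed. They were sought among genes at or above the median signal of 6.94, and this description took the highest of 8484 or 8485 correlations. For Pdia3 they were Pcgf1 (Pearson r = 0.825), Lmln (0.812) and Ncbp1 (0.808), while 1 in 100 of all genes compared reached 0.687. For Cyp2r1 they were Cdh13 (0.692), Itgb1bp1 (0.681) and Pcdhb21 (0.671), while 1 in 100 reached 0.496. For Cyp27a1 they were Upf3a (0.686), Lig1 (0.617) and Or1f21 (0.573), while 1 in 100 reached 0.373. Or1f21 is by its symbol an olfactory receptor gene, a kind presumed silent here. All values of a rat share 1 array, and rats were housed in pairs.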

How the data were processed

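Hippocampal RNA of 26 rats was measured on Affymetrix Rat Gene ST arrays, 1 array per rat. The deposited table holds log2 values of 29214 probe sets made by the authors. Partek 6.6 and GCRMA are named in the submitters' processing notes, with no role given. The genome build is not given in the sources used here. No further normalization was applied. Groups were taken from the sample titles, and cages were read from a number in the array descriptions that the labels do not name as the cage.

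The platform annotation gave 1 gene symbol to 15310 probe sets, several to 323 and none to 13581. For 15279 of the first the gene ID was found in RefSeq (GRCr8), among them all 9 genes. The highest-mean probe set stood for each of 14506 genes, without an intensity filter. Models with diet as a factor over all arrays came from limma (version 3.58.1, under R 4.3.3), and 2-sided p values were adjusted by Benjamini-Hochberg over all genes. The rats are separate animals. Correlations used 100000 permutations (numpy 2.4.6), with ranks and adjustment from scipy 1.17.1. The procedure was also run on simulated data with independent noise. The planted shifts were larger than any difference seen among the 9 genes, so that run does not bear on differences of this size.

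The genes, lists and tests were chosen with earlier results of these data known. Named were the 9 genes, the retinoid X receptors, listed genes with an unadjusted p under 0.05 and the 3 genes most like each gene above background. Values of other listed genes (Amn, Alb, Por, Fdx1, Lrpap1, S100g, Trpv5, Trpv6, Calb1, Prox1, Wfs1, Ttr, Kcnj13, Kl, Col8a1, Steap1, Aqp1) were added after they were seen. The other marker lists, ependyma and neighbouring cortex and thalamus, had means per rat of 5.87 to 6.15 and 9.32 to 9.83, and meningeal fibroblast markers 7.02 to 7.27. Alternatives were an intensity filter, every probe set fitted, 2 scalings, cage as a random block, array weights, another prior, fits of 2 diets at a time, the tail mark, removal of outlying values, no moderation, other thresholds and each array left out.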

Additional observations from a re-analysis of the deposited data

Results flagged for a closer look

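Cubn in control rat 13 was the lowest of its diet at 5.29, far below the nearest other control rat at 5.37 for the narrow range of the group. It was the only value singled out among 27 sets of 8 or 9 rats (9 genes in 3 diets), of which chance alone would single out about 1 in 20. Cubn lay at background, and without control rat 13 the difference between high and control was +0.028.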

How the results depend on the processing

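In 155 recounts under the alternatives, 0 of the 9 genes were called, and the recounts with the intensity filter held only Cyp2r1 and Pdia3. In the main fit 0% of all genes were called, so these recounts say nothing particular about the 9. The share of all genes called under each alternative is not given here. Of 276 recomputed differences, 12 changed sign, and the smallest adjusted p was 0.380 (Cyp27a1, high minus low, +0.099, limma unadjusted p = 0.00877, with gene values more than 2 SD off the diet mean removed, which dropped 1 control and 1 high value). With quantile normalization Cyp27b1 was -0.00072 for high minus control and -0.00067 for low minus control. With array medians centred Cyp27b1 was +0.0033 for high minus low, Lrp2 +0.00030 for high minus control and Cyp2r1 +0.00083 for low minus control. With array quality weights Pdia3 was -0.00034 for low minus control. With values over 2 SD removed Gc was -0.024 for high minus low, Cyp2r1 +0.0016, Cyp27a1 +0.037 and Lrp2 +0.00070 for high minus control, and Cyp24a1 +0.014 and Cyp2r1 +0.023 for low minus control. The cause of these sign changes was not tested.

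With 1 rat left out, 24 of 702 differences changed sign. For high minus low the range was -0.024 to +0.024 for Gc, -0.0093 to +0.0064 for Cyp27b1, -0.0061 to +0.021 for Lrp2 and -0.00014 to +0.014 for Pdia3. For high minus control it was -0.037 to +0.0097 for Cyp27a1, -0.0026 to +0.012 for Cyp27b1, -0.043 to +0.0016 for Cyp2r1 and -0.019 to +0.00070 for Lrp2. For low minus control it was -0.024 to +0.014 for Cyp24a1 and -0.021 to +0.023 for Cyp2r1. Of the 9 genes, 7 lay under the median of all probe sets, 6.94, and 6 under a limit of 6.29 from 1105 olfactory receptor genes with newer symbols included, an alternative chosen after seeing the data. The 7 had no value under the intensity filter, and no gene had a further probe set to compare. No paired analysis was possible because rats carry no number shared between diets.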

Other observations

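With the number in the array descriptions read as the cage, both rats of 12 cages were measured. Cage mates lay further apart than other rats of their diet, by the median absolute difference, in 7 of the 9 genes and closer in 2, Pdia3 and Gc. For Pdia3 the median absolute difference between cage mates was 0.024 log2 over 12 pairs, against 0.044 over 88 pairs of rats of the same diet from other cages, and for Vdr it was 0.081 against 0.057. These differences between pairs were not tested, and the share over all genes is not given here. Each pair of cage mates joined a marked and an unmarked rat, while the other pairs also joined rats of the same mark. Cage mates were not compared with pairs of unlike mark from other cages, so these values do not separate cage from tail mark.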
